A study of Mus musculus with 18 samples.

Results

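The growth hormone and IGF axis is described here by 10 genes of the 55401 in the deposited tables, namely the hormone Gh, its receptor Ghr, the ligand Igf1, the receptors Igf1r and Igf2r, and the binding proteins Igfbp2, Igfbp3, Igfbp4, Igfbp5 and Igfbp7. They were found by gene name in the table of estimated read counts and in the table of length-scaled levels (transcripts per 1000000, TPM). Gh was chosen by its read counts, which had been seen in every knock-out pool, so its difference between genotypes is given as a description and was not tested. The others entered as parts of the axis, to ask whether they changed along with Gh.

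RNA had been sequenced from thick ascending limbs, the tubule segment of the loop of Henle that reabsorbs salt, calcium and magnesium, dissected by hand from adult male mice, given as C57BL/6J in the labels and as mainly of C57BL/6 background in the study's methods. The medullary part (MTAL) was taken from the outer medulla, in its inner stripe, and the cortical part (CTAL) from the cortex, each pool from a distinct animal, with 5 WT CTAL, 5 cKO CTAL, 5 WT MTAL and 3 cKO MTAL pools. Both genotypes carry floxed alleles of Cldn10, which encodes the tight junction protein claudin-10, and cKO mice also carry a Cre transgene under the Ksp-cadherin promoter, used to reach the distal nephron, whereas WT mice are littermates with no Cre. Since Cre was present only in the cKO animals, the loss of Cldn10 and the presence of the Cre transgene cannot be told apart in these pools, and the cKO kidneys were also known to calcify in the outer medulla. Total counts ran from 10824328 to 62339991 per pool. Cldn10 was at 383 to 579 counts per 1000000 (CPM) in WT CTAL, 156 to 185 in cKO CTAL, 665 to 823 in WT MTAL and 151 to 283 in cKO MTAL. The study had kept only cKO pools with lower Cldn10 than WT, so this separation was partly set by that choice. The title and genotype field of WT CTAL pool 1 read knock-out while its pool name reads WT, and its 446 CPM of Cldn10 lay within the WT range, so it was used as WT. The thick ascending limb markers summed to 84600 to 95400 CPM in WT CTAL and 82800 to 97700 in cKO CTAL. In MTAL they summed to 50200 to 63100 CPM in WT and 67400 to 78000 in cKO, with no overlap between genotypes. The pool cKO MTAL 20 stood apart with 973 CPM of collecting duct principal cell markers, against 115 and 117 in the other cKO MTAL pools.

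Growth hormone is a peptide made by the somatotrophs of the anterior pituitary, and it acts through its receptor, JAK2 and STAT5, above all in the liver, to switch on Igf1 and the feedback genes Socs2 and Cish. IGF1 then acts through IGF1R, a tyrosine kinase that signals by IRS adaptors and PI3K, while IGF2R clears IGF2 and carries lysosomal enzymes. Binding proteins hold IGFs in blood and tissue and release or withhold them, and the kidney is both a target of the axis and a local source of IGF1. In bulk pools, fewer cells of a type and less RNA per cell cannot be told apart.

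Gh (ENSMUSG00000020713.6) lies on the minus strand at chr11:106300271-106301865 in GRCm38, the build also called mm10, and has 1 annotated transcript of 862 bases in 5 exons with no overlapping gene. Its coding sequence has 651 bases, with 216 codons before the stop. The first 300 bases, from the 5′ end, are shown because this is the annotated message to which the Gh counts are assigned, with the start codon in capitals.

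Gh, first 100 codons: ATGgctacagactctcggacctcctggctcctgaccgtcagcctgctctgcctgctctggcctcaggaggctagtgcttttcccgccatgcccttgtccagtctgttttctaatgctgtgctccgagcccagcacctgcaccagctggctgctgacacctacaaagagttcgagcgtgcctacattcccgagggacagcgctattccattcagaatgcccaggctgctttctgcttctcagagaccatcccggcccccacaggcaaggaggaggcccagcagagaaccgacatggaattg

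Gh reads were found in all 18 pools, and the WT and cKO pools did not overlap in either segment. The estimated counts of Gh in WT CTAL pools 1, 3, 8, 10 and 22 were 25, 5, 61, 19 and 22, and in cKO CTAL pools 2, 4, 7, 9 and 21 they were 204, 142, 147, 474 and 122. In WT MTAL pools 11, 13, 15, 17 and 19 they were 6, 46, 10, 16 and 3, and in cKO MTAL pools 16, 18 and 20 they were 85, 100 and 346. Set against library size with TMM normalization, the WT pools lay below 1 CPM and the cKO pools severalfold above. On total counts alone, WT MTAL pool 13 was at 1.01 CPM.

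In CPM, Gh was at 0.973, 0.471, 0.998, 0.644 and 0.741 in WT CTAL and at 4.17, 6.18, 7.42, 7.21 and 6.10 in cKO CTAL, in the same order of pools. The group means were 0.765 ± 0.223 (SD, n = 5) and 6.22 ± 1.29 CPM (SD, n = 5), a ratio of 8.12. In MTAL the levels were 0.35, 0.97, 0.50, 0.33 and 0.15 CPM in WT pools and 5.99, 4.93 and 20.1 CPM in cKO pools. The lowest cKO pool of each segment thus lay above the highest WT pool, and cKO MTAL pool 20 lay above the other cKO pools of both segments. In MTAL the WT pools averaged 0.461 ± 0.311 CPM (SD, n = 5), the cKO pools 10.3 ± 8.44 CPM (SD, n = 3), and the ratio was 22.4. Pool 20 is also the pool with 973 CPM of collecting duct markers, and the part of those cells in its Gh level was not tested. With pool 20 left out, the fitted log2 fold change of Gh in MTAL was 3.54 in place of 4.46, and in CTAL it was 2.95. Between cKO MTAL and cKO CTAL the fitted log2 difference of Gh was 0.82 with a standard error (SE) of 0.42, and it did not pass the test (edgeR adjusted p = 0.342). Its sign turned without pool 20, where it was -0.13.

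**Figure D1:**
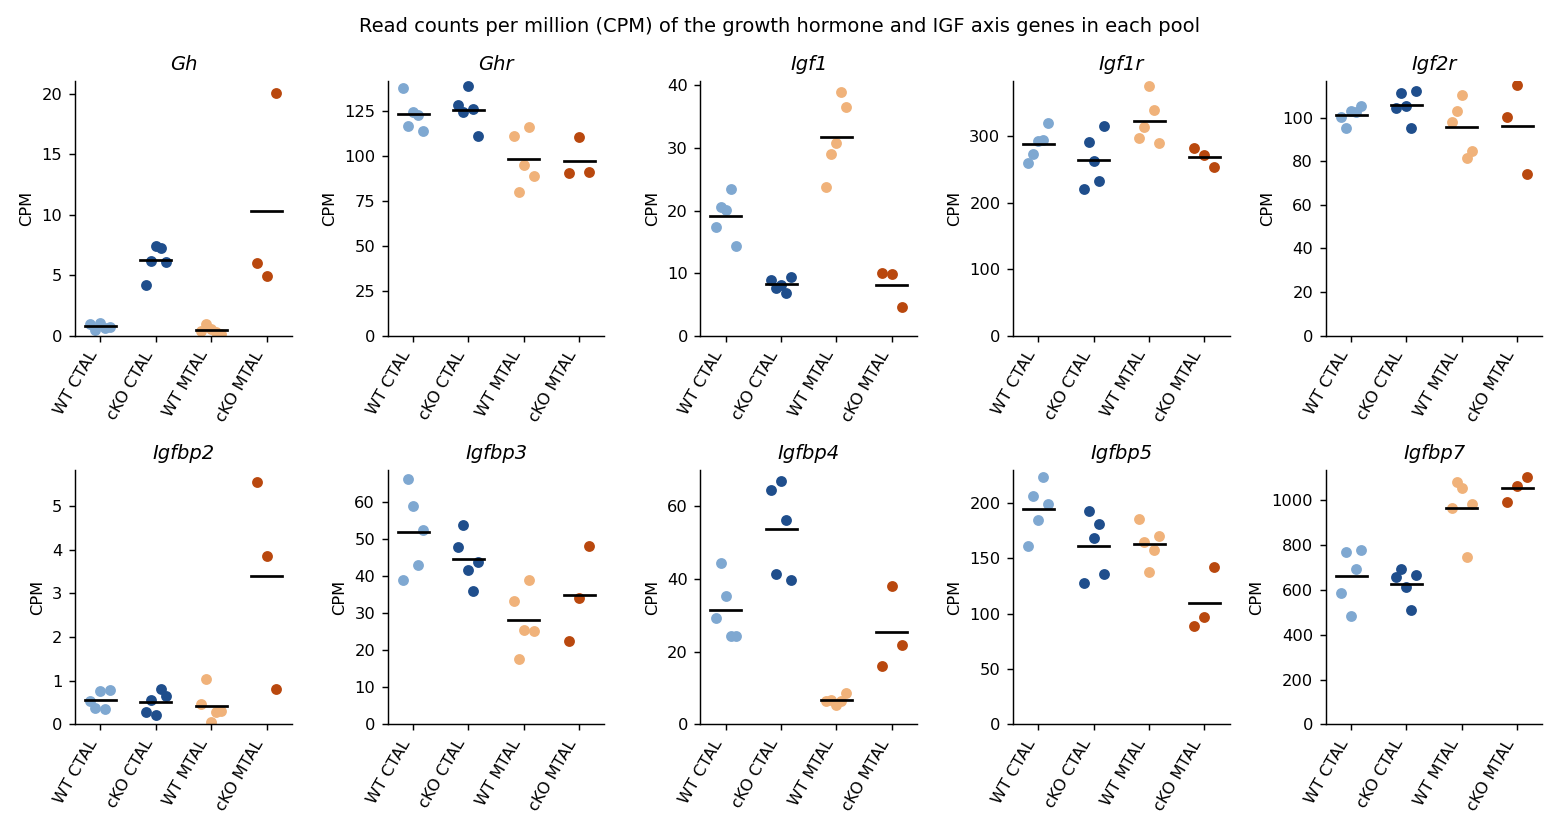
Levels of the 10 genes in counts per 1000000 (CPM, linear axes from 0) in each pool of WT CTAL, cKO CTAL, WT MTAL and cKO MTAL, with the group mean as a bar. Gh and Igf1 separate WT from cKO pools in both segments, Gh upward (at most 0.998 against at least 4.17 CPM) and Igf1 downward (at least 14.2 against at most 10.1 CPM), and Igfbp4 separates them in MTAL.

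The count of Gh divided by its TPM, scaled by the library, gives an approximation to the transcript length that the quantification used. For Gh this length ran from 817 to 909 bases over the 18 pools, a 1.11-fold range, with medians of 846 in WT CTAL, 876 in cKO CTAL, 819 in WT MTAL and 860 in cKO MTAL. As only 1 transcript of Gh is annotated, the ratio carries no information on which stretch of the message was read. The tables hold no read positions, so reads from the Gh gene and reads from another sequence that shares its bases cannot be told apart.

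Of 13 genes annotated within 100000 bases of Gh, 8 could be tested, and 0 of the 8 passed in either genotype comparison (edgeR, lowest adjusted p = 0.402 in MTAL and 0.604 in CTAL). At an unadjusted p under 0.05, and by DESeq2, the count was also 0 in both segments. Their log2 fold changes ran from -0.36 to 0.60 in MTAL and from -0.52 to 0.19 in CTAL. The nearest genes on either side, Tcam1 and the B cell receptor chain Cd79b, were at means of 0.0329 and 0.119 CPM in cKO MTAL, where Gh was at 10.3 CPM. Smarcd2, a chromatin remodelling subunit whose start lies 28.9 kb from that of Gh, was at 35.1 CPM in WT MTAL and 38.7 CPM in cKO MTAL (log2 fold change 0.19, edgeR adjusted p = 0.611).

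**Figure D2:**
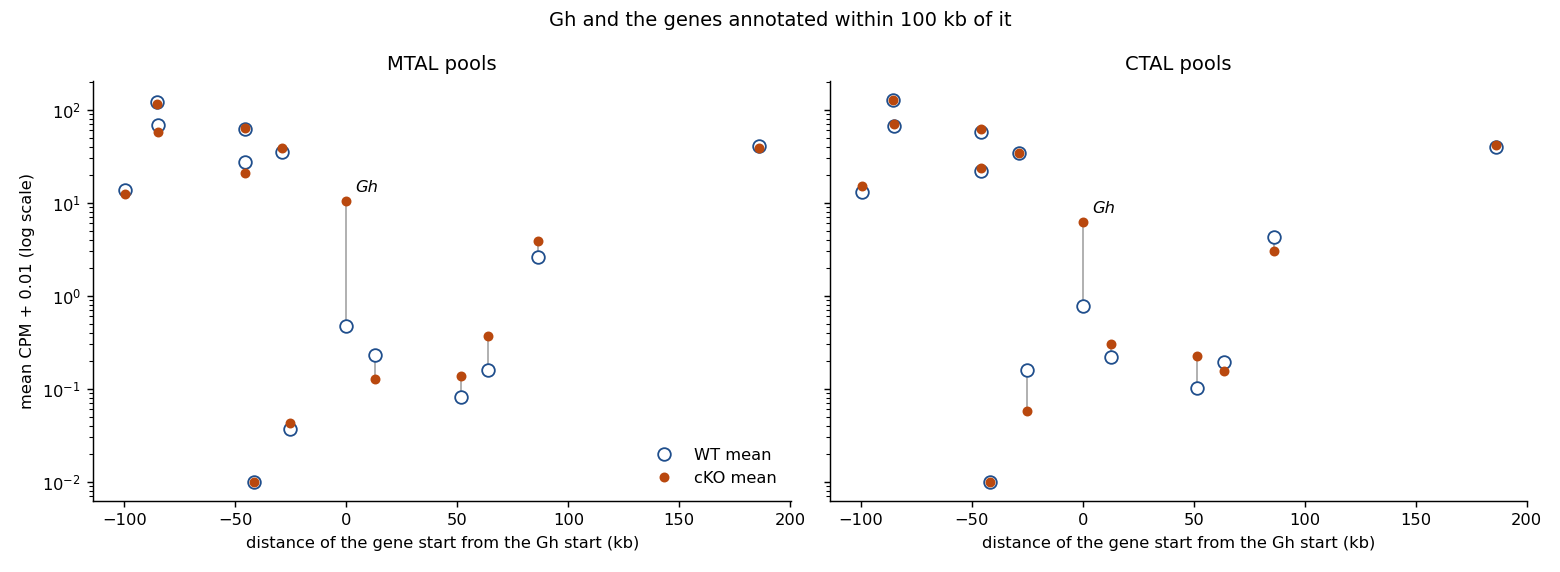
Mean CPM plus 0.01 (log axis) of Gh and of the 13 genes annotated within 100 kb, against the distance of each gene's start from the Gh start in kb, for MTAL pools (left) and CTAL pools (right), with open circles for WT and filled circles for cKO. Gh lies apart from its neighbours, rising from 0.461 to 10.3 CPM in MTAL and from 0.765 to 6.22 CPM in CTAL, while the neighbours above 1 CPM keep their 2 circles close.

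Other pituitary messages were close to absent. Among the pituitary cell markers, the hormone genes Prl, Tshb, Lhb and Cga were at 0 in all 18 pools, and the summed level of the list was 0.174 to 0.247 CPM in cKO MTAL, 0.25 to 1.23 CPM in cKO CTAL, 0.528 to 1.08 CPM in WT MTAL and 0.327 to 2.56 CPM in WT CTAL. These ranges overlapped between genotypes in CTAL, while in MTAL all cKO sums lay below the WT sums. The part of pituitary RNA in the Gh level was not tested. None of the 10 genes listed for the control of Gh secretion, among them the releasing hormone Ghrh and its receptor, reached the level needed for a test.

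Over the 18 pools, the genes whose pattern lay nearest to that of Gh were Cldn14, Cyba, Ptpn5, Wdr72 and Rhpn1, by the root mean square difference of z-scores of log2 CPM among 12585 genes. This measure is 0 for the same pattern, and it was 0.224 for Cldn14, 0.422 for Cyba, 0.426 for Ptpn5 and 0.47 for both Wdr72 and Rhpn1. Cldn14, a claudin known to limit calcium passage in the thick ascending limb, was at 2.19 ± 1.59 CPM (SD, n = 5) in WT MTAL, 62.2 ± 75.8 (SD, n = 3) in cKO MTAL, 4.46 ± 1.65 (SD, n = 5) in WT CTAL and 26.8 ± 8.83 (SD, n = 5) in cKO CTAL. The cKO MTAL mean was raised by a single pool, as the lowest, median and highest values there were 17.6, 19.2 and 150 CPM. Among the axis genes, Igfbp4 lay nearest to Gh at 0.885 and Igf1 farthest at 1.92, opposite patterns giving the highest values. These distances describe the pools and were not tested, since the pools share their genotype and segment groups.

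Ghr, the receptor of growth hormone, was well expressed and did not pass the test between genotypes. Its lowest, median and highest levels were 114, 123 and 138 CPM in WT CTAL and 111, 126 and 139 CPM in cKO CTAL. In MTAL they were 79.9, 94.9 and 116 CPM in WT and 90.4, 90.9 and 110 CPM in cKO, so the genotypes overlapped in both segments. The log2 fold change was 0.03 in MTAL (95% confidence interval -0.26 to 0.33, edgeR adjusted p = 0.912) and 0.02 in CTAL (-0.15 to 0.18, adjusted p = 0.960). These intervals leave out a change of 1 on the log2 scale in either direction. Among WT pools Ghr was 0.34 lower in MTAL than in CTAL on the log2 scale, short of the threshold (edgeR adjusted p = 0.0616). This difference passed in 4 of 15 alternatives.

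Igf1, the ligand that growth hormone induces in liver, fell in both segments of the cKO mice. The gene lies on the plus strand at chr10:87858265-87937042 (GRCm38), with 8 annotated transcripts, and Igf1os lies on the opposite strand within it. The libraries kept strand, but whether the counting used it is not given in the sources used here. It was at 17.3, 20.5, 20.1, 23.4 and 14.2 CPM in WT CTAL pools 1, 3, 8, 10 and 22, and at 8.95, 7.66, 8.13, 6.88 and 9.30 CPM in cKO CTAL pools 2, 4, 7, 9 and 21. In WT MTAL pools 11, 13, 15, 17 and 19 it was at 23.7, 29.1, 30.8, 39.0 and 36.5 CPM, and in cKO MTAL pools 16, 18 and 20 at 10.1, 9.82 and 4.52 CPM. In each segment the highest cKO pool was lower than the lowest WT pool, the reverse of Gh.

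In MTAL, Igf1 averaged 31.8 ± 6.08 CPM over the WT pools (SD, n = 5) against 8.14 ± 3.13 CPM over the cKO pools (SD, n = 3), a 3.91-fold difference, with a log2 fold change of -1.92 (SE 0.28, edgeR adjusted p = 0.000569). In CTAL they were 19.1 ± 3.46 and 8.18 ± 0.976 CPM (SD, n = 5 each), a 2.34-fold difference, with a log2 fold change of -1.24 (SE 0.15, edgeR adjusted p = 0.00100). The difference between both effects was -0.70 (SE 0.30) and did not pass the test (edgeR adjusted p = 0.279). Among WT pools Igf1 was higher in MTAL than in CTAL (log2 fold change 0.73, SE 0.16, edgeR adjusted p = 0.00975), with no overlap in CPM scaled by TMM or in TPM but with overlap in CPM on total counts, whereas among cKO pools the log2 difference was 0.06 (95% confidence interval -0.55 to 0.67, adjusted p = 0.936). The WT pools of each segment serve both kinds of comparison. Without cKO MTAL pool 20 the MTAL value was -1.63 (edgeR adjusted p = 0.00148), and with WT CTAL pool 1 counted as cKO the CTAL value was -1.02 (adjusted p = 0.0471). TPM values of Igf1 also reflect how reads were assigned among its annotated transcripts, since the length implied by its counts and TPM ran from 1428 to 4188 bases, a 2.93-fold range.

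Endothelial markers fell in part along with Igf1. Of 6 endothelial markers, 4 passed the test downward in cKO MTAL (Cdh5, Emcn, Tek and Plvap, with a median log2 fold change of -0.98 over the 6) and 1 in cKO CTAL (Tek, median -0.64), against medians of 0.0012 and 0.0026 over all genes tested. Their summed level was 252 to 381 CPM in WT MTAL and 129 to 238 CPM in cKO MTAL, and 201 to 448 CPM in WT CTAL and 162 to 247 CPM in cKO CTAL. The genotype ranges did not overlap in MTAL and overlapped in CTAL. None of the 6 endothelial markers was at 0 throughout a group. Thin limb markers, from the neighbouring part of the loop of Henle, summed to 818 to 1100 CPM in WT MTAL and 700 to 766 CPM in cKO MTAL, with no overlap, and to 462 to 741 CPM in WT CTAL and 448 to 536 CPM in cKO CTAL. Of the 5 thin limb markers, the urea transporter gene Slc14a2 passed downward in MTAL (log2 fold change -1.90, edgeR adjusted p = 0.00415) and 0 passed in CTAL. The part of endothelial or thin limb cells in the difference of Igf1 was not tested in either segment. Among markers of macrophages and fibroblasts, other cells known to make Igf1, 0 of 4 and 0 of 4 that could be tested passed in MTAL by edgeR, while DESeq2 called 1 of each, Csf1r downward and Col3a1 upward, and an unadjusted p under 0.05 in edgeR picked out 1 of each as well. The macrophage list summed to 36.4 to 72.5 CPM in WT MTAL and 37.3 to 56.3 CPM in cKO MTAL, and the fibroblast list to 25.7 to 44.3 and 26.7 to 56.5 CPM, so both lists overlapped between genotypes.

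**Figure D3:**
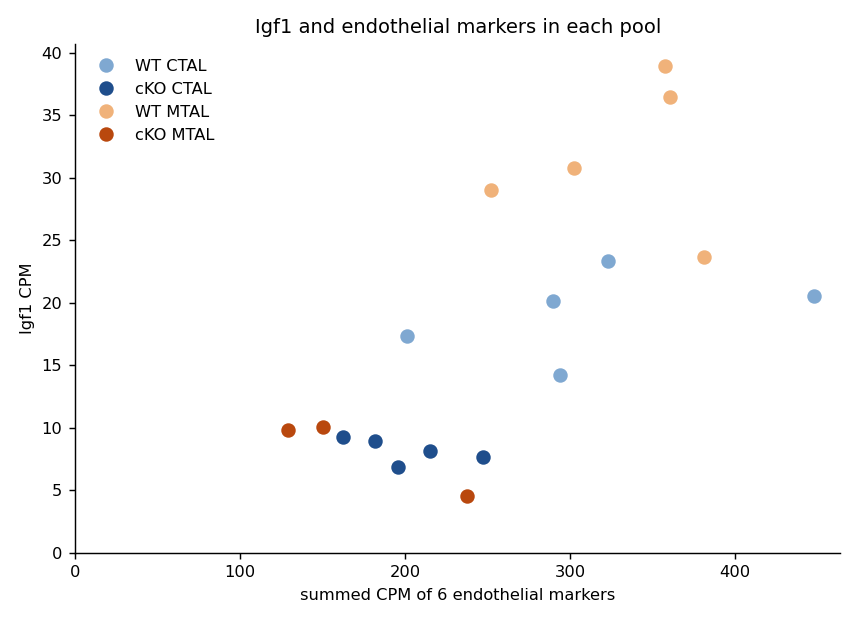
Igf1 in CPM against the summed CPM of 6 endothelial markers, 1 point per pool, coloured by group. The cKO pools lie at or below 10.1 CPM of Igf1 over marker sums of 129 to 247 CPM, and WT pools lie at or above 14.2 CPM over marker sums of 201 to 448 CPM.

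The IGF receptors did not pass the test between genotypes or between segments. Igf1r, the tyrosine kinase receptor of IGF1, was at a median of 292 CPM (260 to 320) in WT CTAL, 262 (220 to 315) in cKO CTAL, 314 (290 to 375) in WT MTAL and 271 (254 to 283) in cKO MTAL. All 3 cKO MTAL pools lay below the WT MTAL pools in CPM, but not in TPM, and the log2 fold change was -0.21 (95% confidence interval -0.47 to 0.04, edgeR adjusted p = 0.300), with -0.13 in CTAL (-0.35 to 0.08, adjusted p = 0.669). Igf2r, the clearance receptor, was at medians of 103, 106, 98.1 and 100.2 CPM in the same order of groups, and all groups overlapped. Its log2 fold change was 0.06 in MTAL (95% confidence interval -0.27 to 0.38) and 0.05 in CTAL (-0.10 to 0.19, edgeR adjusted p = 0.857 and 0.844).

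Igfbp4, a binding protein that withholds IGFs from their receptor, rose in cKO MTAL. It lies on the plus strand at chr11:99041244-99054392 (GRCm38) and overlaps no other annotated gene. Its level was 6.45, 6.59, 5.19, 6.37 and 8.50 CPM in WT MTAL pools 11, 13, 15, 17 and 19, and at 15.9, 38.1 and 21.9 CPM in cKO MTAL pools 16, 18 and 20. The lowest cKO pool lay well above the highest WT pool. In CTAL it was at 29.4, 44.5, 35.3, 24.3 and 24.4 CPM in WT pools 1, 3, 8, 10 and 22 and at 64.5, 41.4, 67.0, 56.2 and 39.8 CPM in cKO pools 2, 4, 7, 9 and 21, where WT pool 3 reached into the cKO range.

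The MTAL means of Igfbp4 were 6.62 ± 1.19 (SD, n = 5) and 25.3 ± 11.5 CPM (SD, n = 3), a 3.82-fold rise with a log2 fold change of 1.98 (SE 0.28, edgeR adjusted p = 0.000447). On the TPM scale the rise was 5.97-fold, which also reflects how reads were assigned among its annotated transcripts. The length implied by its counts and TPM was 2339 to 4053 bases in WT MTAL and 2237 to 2338 in cKO MTAL. Some markers of other tubule cells passed upward in the same comparison. Of 3 proximal tubule markers tested, 1 passed, Slc34a1 (log2 fold change 2.39, edgeR adjusted p = 0.00657). Of 4 intercalated cell markers tested, 1 passed, Atp6v0d2 (1.86, edgeR adjusted p = 0.0381). Both genes overlapped between WT and cKO MTAL pools in CPM. The proximal tubule list summed to 18.4 to 32.1 CPM in WT MTAL and to 19.998, 88.3 and 72.9 CPM in cKO MTAL pools 16, 18 and 20, and the intercalated cell list to 16 to 71.5 CPM in WT and 31.5 to 189 CPM in cKO MTAL. In CTAL the intercalated cell list summed to 38.3 to 47.7 CPM in WT and 42.2 to 150 CPM in cKO pools, and 1 of its 5 markers passed upward. The pool cKO MTAL 18 was highest of its group in both Igfbp4 and the proximal tubule sum. The part of these cells in the Igfbp4 level was not tested in either segment. In CTAL the log2 fold change was 0.77 (SE 0.18, 95% confidence interval 0.37 to 1.16), just short of the threshold (edgeR adjusted p = 0.0625), and it passed without WT CTAL pool 3 (0.91, adjusted p = 0.0277), by the DESeq2 likelihood ratio test (0.76, adjusted p = 0.00274) and by limma on TPM (0.93, adjusted p = 0.0445). It did not pass in the other 13 of 16 alternatives, among them WT CTAL pool 1 counted as cKO (0.63, edgeR adjusted p = 0.269) and WT CTAL pool 10 left out (0.69, adjusted p = 0.161). The difference between the MTAL and CTAL effects was 1.20 (SE 0.32, edgeR adjusted p = 0.0817) and likewise changed side by DESeq2 (1.22, adjusted p = 0.0147) and without cKO MTAL pool 16 (1.43, adjusted p = 0.0478).

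Igfbp4 was also the axis gene that differed most between WT segments, 4.77-fold lower in MTAL than in CTAL with no overlap (log2 fold change -2.26, SE 0.19, edgeR adjusted p = 1.86e-06). Between cKO segments the log2 difference was -1.02 (SE 0.26) and missed the threshold (edgeR adjusted p = 0.0713). It passed there in 3 of 13 alternatives. Among them were a fit with all pools kept and the fit without cKO MTAL pool 18, the pool with the highest Igfbp4 of its group (-1.41, edgeR adjusted p = 0.00582).

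Igfbp5, a matrix-associated binding protein, was at 185, 165, 138, 158 and 170 CPM in the 5 WT MTAL pools and at 88.9, 96.7 and 143 CPM in the 3 cKO MTAL pools. cKO pool 20 lay within the WT range and the other cKO pools below it. The log2 fold change of -0.53 (SE 0.15) passed narrowly (edgeR adjusted p = 0.0481), and the call was lost in 9 of 13 alternatives, among them a fit of TPM with limma (-0.36, adjusted p = 0.366). Without cKO pool 20 it was -0.76 (adjusted p = 0.00575). In CTAL the log2 fold change was -0.28 (95% confidence interval -0.54 to -0.03, edgeR adjusted p = 0.355).

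Igfbp7, a low-affinity IGF binder secreted into the matrix, had the highest level of the 10 genes in every group, at 968 ± 116 TPM in WT CTAL, 1023 ± 64.3 in cKO CTAL, 1332 ± 204 in WT MTAL (SD, n = 5 each) and 1615 ± 70.1 in cKO MTAL (SD, n = 3). In CPM its lowest, median and highest values were 483, 695 and 779 in WT CTAL, 510, 658 and 694 in cKO CTAL, 748, 985 and 1082 in WT MTAL and 993, 1065 and 1106 in cKO MTAL. The genotypes overlapped in both segments, while the segments overlapped in WT only. Igfbp7 was higher in MTAL than in CTAL among WT pools (log2 fold change 0.54, SE 0.13, edgeR adjusted p = 0.0168) and among cKO pools (0.82, SE 0.11, adjusted p = 0.00326). Without WT CTAL pool 1, the pool with conflicting labels, the WT difference was 0.50 and missed the threshold (edgeR adjusted p = 0.0534). Between genotypes the log2 fold change was 0.17 in MTAL and -0.09 in CTAL (edgeR adjusted p = 0.441 and 0.849).

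Igfbp3, the main carrier of IGFs in blood, was higher in the cortex of WT mice, with 38.9 to 66.3 CPM in WT CTAL and 17.7 to 39.0 CPM in WT MTAL. The ranges touched at 1 pool of each segment, and the log2 difference was -0.89 (SE 0.19, edgeR adjusted p = 0.00726). In cKO pools the ranges were 35.9 to 53.7 CPM in CTAL and 22.6 to 48.2 CPM in MTAL, and the difference of -0.28 did not pass (edgeR adjusted p = 0.539). Between genotypes it was 0.37 in MTAL and -0.23 in CTAL (edgeR adjusted p = 0.419 and 0.592).

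Igfbp2, a binding protein abundant in fetal tissue and liver, did not reach the 3 CPM in 3 pools required for a test. It was at 5.56, 3.85 and 0.81 CPM in cKO MTAL pools 16, 18 and 20 (79, 78 and 14 counts) and at or below 1.03 CPM in all other pools. The higher levels of pools 16 and 18 were thus not shared by pool 20, the reverse of Gh. With low-count genes kept, its log2 fold change in MTAL was 2.92 (SE 0.74, edgeR adjusted p = 0.0469).

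Counted together, 8 of the 9 axis genes other than Gh could be tested in each comparison. In MTAL 3 of the 8 passed between genotypes (Igfbp4 upward, Igf1 and Igfbp5 downward), where 7.01% of all 12060 genes tested passed. In CTAL 1 of the 8 passed (Igf1 downward), where 1.22% of 11702 genes passed. Neither count includes Gh. Between WT segments 4 of the 8 passed, with Igf1 and Igfbp7 higher in MTAL and Igfbp3 and Igfbp4 higher in CTAL, against 6.87% of 11650 genes. Between cKO segments 1 of the 8 passed (Igfbp7), against 1.75% of 12044 genes. For the difference between the genotype effects of MTAL and CTAL 0 of the 8 passed by edgeR, where 0.286% of 12586 genes passed, and DESeq2 called 1, Igfbp4. At an unadjusted p under 0.05, edgeR gave 2 there, Igf1 and Igfbp4.

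By the levels alone, WT and cKO MTAL pools did not overlap in CPM for 3 of the 8 genes (Igf1, Igf1r and Igfbp4), against 15% of all genes tested, and CTAL pools for 1 of the 8 (Igf1), against 3.13%. WT segments did not overlap for 2 of the 8 (Igf1 and Igfbp4), against 7.3%, and cKO segments for 3 of the 8 (Ghr, Igfbp4 and Igfbp7), against 10.8%. These counts depend on the scaling. In CPM on total counts, Igf1r overlapped between MTAL genotypes, Igf1 overlapped between WT segments while Ghr, Igfbp3 and Igfbp4 did not, and between cKO segments only Igfbp7 was without overlap. In TPM, Igf1r overlapped between MTAL genotypes and Ghr between cKO segments, while Igfbp4 did not overlap between CTAL genotypes, nor Igfbp3 and Igfbp7 between WT segments. The log2 difference of Ghr between cKO segments was -0.30 and did not pass (edgeR adjusted p = 0.143).

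**Figure D4:**
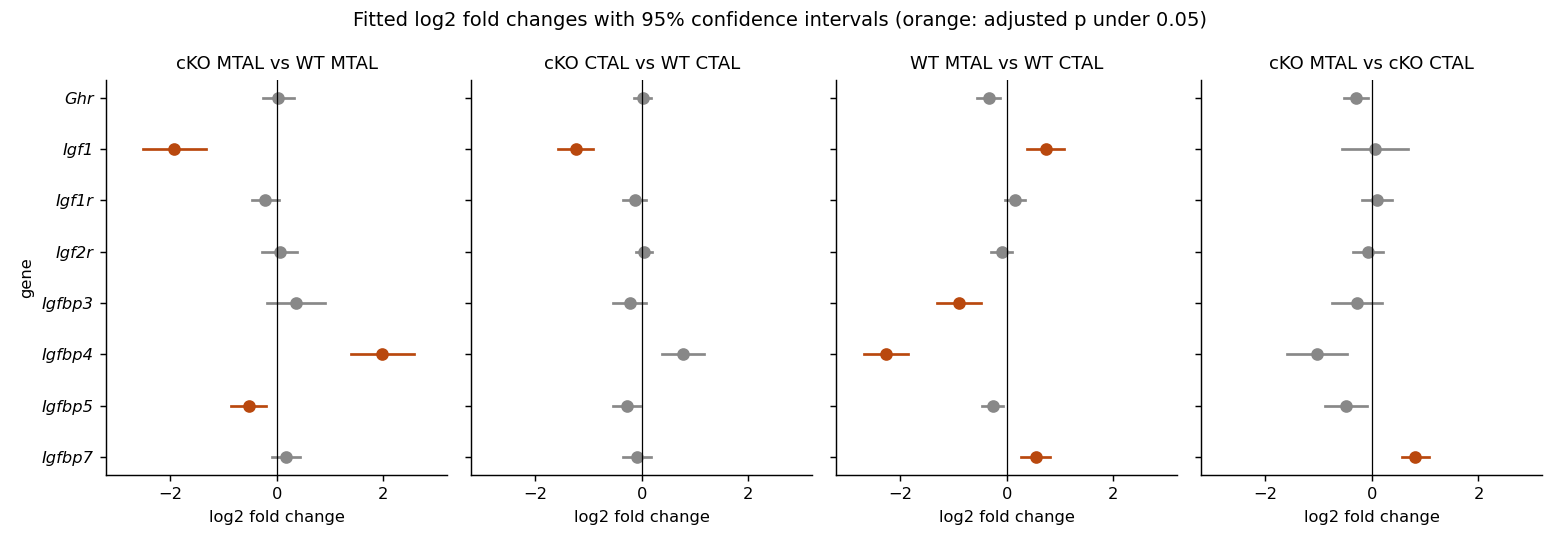
Fitted log2 fold changes (points) with 95% confidence intervals (lines) of the 8 tested genes other than Gh in the 4 comparisons, in orange where the edgeR adjusted p was under 0.05. Igf1 lies to the left in both genotype comparisons (-1.92 and -1.24), Igfbp4 to the right (1.98, and 0.77 short of the threshold), and Ghr, Igf1r and Igf2r lie close to 0.

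TPM values are scaled by transcript length and allow the axis genes to be ordered by level. In WT CTAL, mean TPM fell from Igfbp7 (968) to Ghr (54.8), Igfbp5 (40.8), Igf1r (33.5), Igfbp3 (32.2), Igfbp4 (18.2), Igf2r (14.1), Igf1 (8.81), Gh (1.20) and Igfbp2 (0.686). Pools of neighbouring genes overlapped from Ghr to Igfbp3, between Igfbp4 and Igf2r, and between Gh and Igfbp2, and they did not overlap at the other steps. In WT MTAL the order was Igfbp7 (1332), Ghr (42.4), Igf1r (39.2), Igfbp5 (32.4), Igf1 (20.1), Igfbp3 (16.1), Igf2r (12.8), Igfbp4 (2.74), Gh (0.722) and Igfbp2 (0.466). There the pools overlapped from Ghr to Igfbp5, from Igf1 to Igf2r, and between Gh and Igfbp2, and not at the other steps. Igf1 thus stood above Igfbp4 in WT MTAL and below it in WT CTAL. In cKO pools Gh, at 10.4 TPM in CTAL and 17.5 TPM in MTAL, lay above Igf1 at 4.57 and 6.36 TPM, although the ranges overlapped in both segments.

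Beyond the axis genes, 65 further genes of the pathway had been listed by role. In MTAL 42 of them could be tested and 4 passed, 2 upward and 2 downward, or 9.52% against 7.01% of all genes tested, with a median log2 fold change of -0.02, and in CTAL 43 could be tested and 1 passed downward, or 2.33% against 1.22%, with a median of -0.03. Among genes of growth hormone signalling Stat3, a transcription factor also used by cytokines, rose in cKO MTAL (log2 fold change 0.88, SE 0.15, edgeR adjusted p = 0.00205), and it was 0.43 in CTAL (adjusted p = 0.0869). The kinase Jak2 and both STAT5 genes did not pass in either segment, with Stat5b at 0.05 in MTAL and -0.26 in CTAL (edgeR adjusted p = 0.901 and 0.175).

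The feedback genes that growth hormone induces in liver gave 0 calls of 2 by edgeR in either segment. Socs2, an inhibitor of receptor signalling, was at 4.43 to 12.9 CPM in WT MTAL and 13.2 to 25.8 CPM in cKO MTAL, and its log2 fold change of 1.05 (SE 0.32) lay just short of the threshold (edgeR adjusted p = 0.0557). These ranges did not overlap, the unadjusted edgeR p of Socs2 was 0.00432, and DESeq2 called it (adjusted p = 0.016). In CTAL it was at 9.45 to 31.8 CPM in WT and 16.7 to 23.5 CPM in cKO, with a log2 fold change of 0.20 (edgeR adjusted p = 0.823). Cish, another such inhibitor, was at means of 77.8 ± 13.8 and 80.2 ± 8.17 CPM in WT and cKO MTAL and 81.4 ± 11.8 and 73.3 ± 8.51 CPM in WT and cKO CTAL (SD, n = 5, 3, 5 and 5), with log2 fold changes of 0.10 and -0.16 (edgeR adjusted p = 0.755 and 0.611).

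Downstream of IGF1R, the adaptor Irs1 and the PI3K regulatory subunit Pik3r1 were lower in cKO pools. In MTAL, Irs1 averaged 147 ± 34.3 CPM over the WT pools (SD, n = 5) against 70.7 ± 13.4 CPM over the cKO pools (SD, n = 3), with a log2 fold change of -1.005 (SE 0.18, edgeR adjusted p = 0.00411), and in CTAL the value was -0.43 (adjusted p = 0.0670). Pik3r1 fell in both segments, by 0.75 on the log2 scale in MTAL (edgeR adjusted p = 0.0109) and by 0.54 in CTAL (adjusted p = 0.0151). On the TPM scale, however, the cKO to WT ratio of Pik3r1 was 0.939 in MTAL and 0.859 in CTAL, against 0.574 and 0.694 in CPM, and the genotypes overlapped in both segments. The MTAL ratio of Irs1 was 0.561 in TPM and 0.482 in CPM, without overlap on either scale. The other 17 genes of the PI3K, Akt and mTOR list did not pass in either segment. Adam9, a metalloprotease able to cut binding proteins, rose by 0.53 in MTAL (SE 0.14, edgeR adjusted p = 0.0292) and was at 0.17 in CTAL (adjusted p = 0.259). Of the IGF ligands and carriers outside the axis genes only Igfbp1 could be tested, at 0.35 in MTAL and -0.19 in CTAL (edgeR adjusted p = 0.702 and 0.898).

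**Figure D5:**
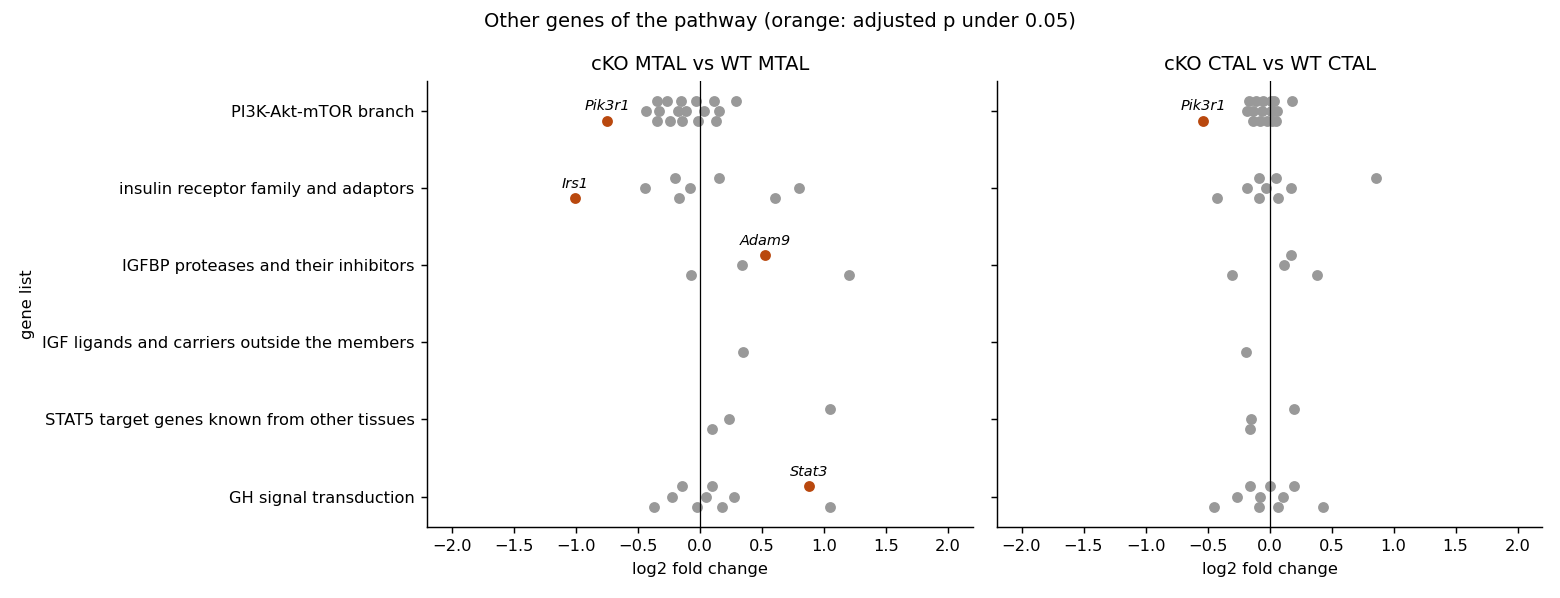
Log2 fold changes of the tested pathway genes outside the 10 axis genes, by list (rows; a gene may stand in more than 1 list), in MTAL (left) and CTAL (right), in orange where the edgeR adjusted p was under 0.05. In MTAL Stat3 (0.88) and Adam9 (0.53) lie to the right and Irs1 (-1.005) and Pik3r1 (-0.75) to the left, and in CTAL Pik3r1 (-0.54) alone is called.

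STAT5 is known to bind the letters TTCNNNGAA, which read the same on both strands. Promoter windows ran from 250 bases before to 50 after gene starts that RefSeq gives for GRCm38.p6. They were matched for 9 of the 10 axis genes, in 11 windows, and Gh had no window. Such starts can differ from the annotated ones, and the Igf1 window lies inside the gene, past its annotated start at 87858265. The stretch at that annotated start was not searched. The motif was found in 0 of these 11 windows and in 2726 of all 32851 windows, or 8.3%. Igf1 and Igfbp4 are shown because they changed in opposite directions, and Cish because its window held the motif 2 times, in capitals, starting at the gene's start and 11 bases after it. Cish itself did not pass the test in either segment.

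Igf1 promoter, chr10:87860861-87861160, plus strand: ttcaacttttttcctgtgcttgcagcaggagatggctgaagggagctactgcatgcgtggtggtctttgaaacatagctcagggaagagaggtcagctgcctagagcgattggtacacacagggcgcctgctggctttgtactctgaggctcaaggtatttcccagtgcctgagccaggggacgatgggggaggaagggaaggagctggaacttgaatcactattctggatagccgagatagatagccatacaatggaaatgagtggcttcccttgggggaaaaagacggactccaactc
Igfbp4 promoter, chr11:99040994-99041293, plus strand: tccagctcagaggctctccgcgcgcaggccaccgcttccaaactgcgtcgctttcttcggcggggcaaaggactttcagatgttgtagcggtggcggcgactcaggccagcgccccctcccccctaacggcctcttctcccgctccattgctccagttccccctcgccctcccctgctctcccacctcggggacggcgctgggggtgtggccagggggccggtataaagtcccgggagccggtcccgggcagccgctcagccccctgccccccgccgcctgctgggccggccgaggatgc
Cish promoter, chr9:107296409-107296708, plus strand: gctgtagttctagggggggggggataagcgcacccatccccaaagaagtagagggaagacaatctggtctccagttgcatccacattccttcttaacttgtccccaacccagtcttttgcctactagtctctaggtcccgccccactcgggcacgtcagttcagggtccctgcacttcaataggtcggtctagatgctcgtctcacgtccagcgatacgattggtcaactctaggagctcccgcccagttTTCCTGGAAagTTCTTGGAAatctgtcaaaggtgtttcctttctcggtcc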

How the data were processed

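Per the labels and the study's methods, poly-A RNA was made into strand-specific libraries and sequenced as paired ends, reads were checked with FastQC, trimmed, and aligned and quantified with DRAGEN on mm10 with gencode annotation, and quality was checked with Picard. The labels name Trimmomatic for trimming, whereas the study's methods name fastp. The deposited tables hold estimated counts and TPM per gene for 18 pools, both made by the authors. They had left out cKO MTAL pools after quality control, and a cKO CTAL pool because its Cldn10 level was like that of WT CTAL.

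Estimated counts were rounded and tested with edgeR 4.0.16 (R 4.3.3), using TMM normalization, the quasi-likelihood F test and Benjamini-Hochberg adjustment over all genes tested. Genes needed at least 3 CPM in at least 3 pools for comparisons with cKO MTAL, or in 5 pools otherwise, and passed at an adjusted p under 0.05. Only the pools of both groups compared entered each fit, and the difference of genotype effects on all 18 pools. The z-scores used log2(CPM + 0.5). Alternatives were DESeq2 1.42.0, its size factors, low-count genes kept, all groups fitted together, limma 3.58.1 on log2(TPM + 1), each pool left out, and WT CTAL pool 1 as cKO. The model was tested on simulated data.

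The axis genes and gene lists were chosen with earlier results of these data known. Genes named are the axis genes, pathway genes that passed between genotypes, Socs2, Cish, the 5 genes nearest to Gh, its neighbours and markers, and a gene of the marker lists is not reported here. Of the gene identifiers, 99.5% matched the GRCm38 annotation used for positions. Intervals cover the spread between pools, and counts limit the precision of Gh in WT pools, where 3 to 61 reads were counted.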

Additional observations from a re-analysis of the deposited data

How the results depend on the processing

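Igf1 kept its direction and its side of the threshold in both genotype comparisons under every alternative run, with log2 fold changes from -2.12 to -1.63 in MTAL and from -1.33 to -1.15 in CTAL when single pools were left out, and Igfbp4 kept its call in MTAL (1.58 to 2.21). Without single pools, the genes past the test numbered 480 to 1020 between MTAL genotypes (845 with all pools), 75 to 191 between CTAL genotypes (143), 562 to 796 between WT segments (800), 102 to 846 between cKO segments (211) and 15 to 569 for the difference of effects (36), and the axis genes other than Gh numbered 2 to 3, 1 to 2, 3 to 5, 1 to 2 and 0 to 1. The highest counts in both last comparisons came without cKO MTAL pool 18 and the lowest without cKO CTAL pool 9. DESeq2 gave 1364, 360, 775 and 387 genes between MTAL genotypes, CTAL genotypes, cKO segments and for the difference, with 2 axis genes in CTAL, 2 between cKO segments and 1 for the difference. One fit of all groups gave 2060 genes in MTAL and 653 between cKO segments, with 3 axis genes there. TPM with limma gave 317, 92, 452 and 68 genes in MTAL, CTAL, WT segments and cKO segments, with 2 axis genes in CTAL. Keeping low-count genes left 94 genes in CTAL and 12 for the difference. Values near 0 that turned sign were Ghr in MTAL (-0.0194) and in the difference (-0.0426) with low-count genes kept, Igf1r (0.0112) and Igfbp7 (0.0853) in CTAL with TPM, and Igf2r in the difference with DESeq2 size factors (0.0118) and with DESeq2 (0.0121). Without single pools, sign also turned for Ghr in MTAL (-0.0490 to 0.104), CTAL (-0.0219 to 0.0607) and the difference (-0.0826 to 0.0870), for Igf2r in MTAL (-0.0674 to 0.218), between cKO segments (-0.182 to 0.0816) and in the difference (-0.132 to 0.170), and for Igf1 (-0.155 to 0.341) and Gh (-0.126 to 1.17) between cKO segments. The cause of these changes was not tested. No paired analysis was possible because the groups share no replicate numbers.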
